A study of Bos taurus with 18 samples.

Results

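The genes for translation initiation and elongation factors were followed in bovine cumulus cells, the somatic cells that enclose the oocyte in the ovarian follicle. The set holds every array probe whose platform gene symbol begins with EIF1 to EIF6, EEF1 or EEF2, and leaves out the kinases named EIF2AK. Its rule uses the names and no measured value, though it was drawn up with earlier results of these data known. The rule took 84 of 43794 gene probes, for 55 of 15216 gene symbols. Of these 55 genes, 50 had a probe above background, with 73 such probes, and were tested among 11044 genes. Not above background, and so not tested, were EIF1AY, EIF4E1B, EIF4G3 and the genes that the platform calls EIF2C1 and EIF2C2. EIF2C1, EIF2C2 and EIF2C3 are old names of the Argonautes AGO1, AGO2 and AGO3, which bind small RNAs and are no eIF2 subunits. AGO3 is therefore left out of the role groups, but it is counted among the 50 genes throughout. EIF1AX, EIF3A, EIF4G1 and EIF4EBP3 were not analysed here.

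The cells came from 6 cycling Holstein cows, 4 years old on average, over 24 collections. During the luteal phase all cows received FSH, which stimulates the growth of follicles: 40 mg every 12 h, 6 doses in 3 days. Oocytes with their cumulus cells were aspirated after a further 20, 44, 68 or 92 h without FSH, called coasting, and each cow went through all 4 durations. The sampled follicles were 3 to 5 mm wide after 20 h, from 6 to 8 mm wide after 44 or 68 h, and wider than 8 mm after 92 h. Duration and follicle size cannot be told apart, except between 44 and 68 h, which share a size range. RNA from 44, 68 or 92 h was hybridised against RNA from 20 h on 18 arrays of 2 colours, with 3 replicates per time and both dye orientations of each replicate. The labels do not state which cows make up a replicate, so the p-values measure only the spread between these samples.

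Initiation begins when eIF2 brings the initiator tRNA to the small ribosomal subunit, where eIF3 holds the complex together, while the eIF4 factors bind the mRNA cap and unwind the leader. EIF1 and EIF5 guard the choice of start codon and EIF5B joins the large subunit. eEF1A then delivers each aminoacyl-tRNA, the eEF1B subunits recharge it with GTP, and eEF2 moves the ribosome along. Cumulus cells are known to supply the oocyte with metabolites and signals through gap junctions and to expand before ovulation.

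Between 44.3% and 68.7% of the gene probes of an array were above background in Cy3 and between 26.5% and 58.9% in Cy5. Of the 50 tested factor genes, 40 were above background on every array and in both channels. Their median mean log2 intensity was 11.14, against 8.60 over all 11044 genes. Of 11 cumulus and granulosa markers, all 11 were above background, though AMHR2 and FOXL2 were not above it on any of the 6 arrays at 92 h. Of 11 oocyte markers, 4 were tested, with a median log2 ratio of 0.01 at 92 h, and GDF9 and ZP2 were not above background. The 11 cumulus and granulosa markers stood at a median of -0.52 (log2 ratio, 92 h), and the medians of single replicates ran from -0.93 to 0.04. Of the 11, 2 were above 0 and 1 passed the test, GATM at 2.63 (adjusted p = 0.0389 by limma). Their median was -0.02 at 68 h, with 5 of 11 above 0, and -0.43 at 44 h, with 1 of 11 above 0. Among 6 of 6 theca and smooth muscle markers MYH11 was higher at 92 h (1.47, adjusted p = 0.012), while the median of the 6 was 0.01 and INSL3 had -0.09. Among 3 of 6 leukocyte markers tested CD68 was higher (0.93, adjusted p = 0.0465), while PTPRC had 0.05 and CD3E -0.02. The part of these markers in the ratios of the factor genes was not tested. The Pearson correlation of log2 ratios across all genes, which are not independent, was 0.417 to 0.679 between replicates at 92 h. It was 0.142 to 0.494 at 68 h and -0.183 to 0.18 at 44 h. In bulk RNA, fewer cells of a type and less RNA per cell cannot be told apart.

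At 92 h most factor genes lay above 0 after loess, fewer did under another scaling, and no single gene passed the test. Of 50 genes, 35 had a mean log2 ratio of 92 h over 20 h above 0 and 15 below, with a median of 0.13, while 49.6% of all genes were above 0 and their median was 0.00. With median centring in place of loess 27 were above 0 and 23 below, with a median of 0.03, while 41.3% of all genes were above 0 and their median was -0.02. The middle 80% of the factor genes ran from -0.32 to 0.65, and that of all genes from -0.40 to 0.37. After loess the median of the factor genes in the 3 replicates was 0.06, 0.16 and 0.05. An adjusted p under 0.05 (limma, Benjamini-Hochberg over 11044 genes) was reached by 0 of 50 factor genes, where 2.32% of all genes passed. At an unadjusted p under 0.05 there were 9 of 50, or 18%, and over all genes also 18%. By replicate sign, 21 of 50 (42%) were above 0 in all 3 replicates, against 23.5% of all genes, and 9 (18%) were below 0 in all 3, against 22.5%. With median centring these were 15 (30%) against 17.3%, and 11 (22%) against 27.4%. The factor genes are brighter than all genes, and the part of brightness in these shares was not tested.

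**Figure D1:**
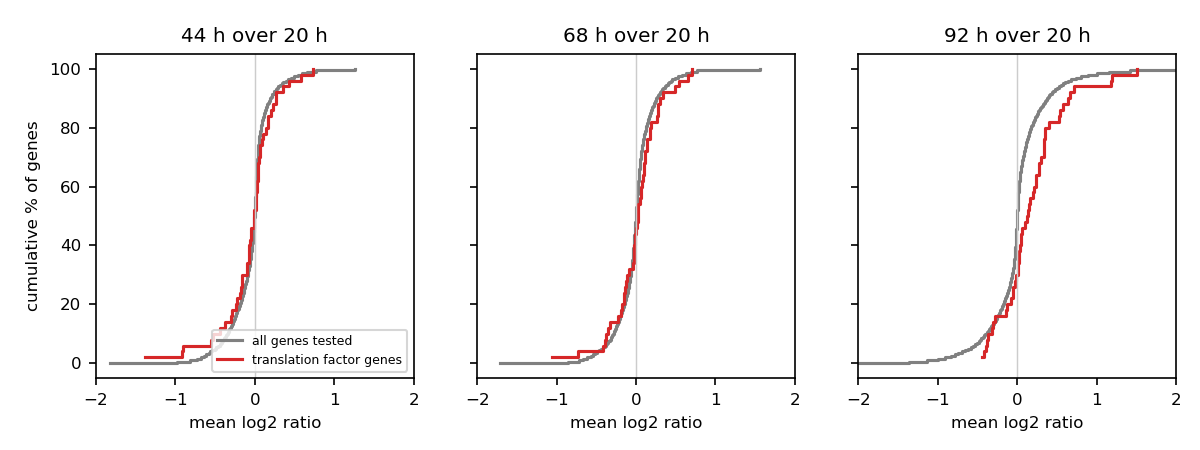
Cumulative share of genes (y axis, %) by mean log2 ratio over 20 h (x axis, shown from -2 to 2) at 44, 68 and 92 h, after loess, for the 50 factor genes (red) and all 11044 genes tested (grey). At 92 h the red line lies to the right of the grey one over most of its length, with medians of 0.13 and 0.00, and at 44 and 68 h the 2 lines run close together.

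The members with the smallest p at 92 h came from every stage of the pathway. EEF1A1, the main carrier of aminoacyl-tRNA, had log2 ratios of 0.24, 0.50 and 0.30 in the 3 replicates at 92 h. All 3 were above 0, with a mean of 0.35 ± 0.14 (SD, n = 3), or 1.27-fold (adjusted p = 0.0615 by limma). EIF3F, an eIF3 subunit with an MPN domain, had 0.51, 0.26 and 0.24, a mean of 0.34 ± 0.15 (SD, n = 3) and an adjusted p of 0.0683 by limma. These are the 2 factor genes nearest to the threshold, and their ratios depended on the scaling of the arrays. With median centring in place of loess EEF1A1 had a mean of 0.20 (adjusted p = 0.507) and EIF3F one of 0.19 (adjusted p = 0.566), and neither kept an unadjusted p under 0.05. EIF4B had 1.37 (adjusted p = 0.157) under that scaling.

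Of the 50 genes, 3 reached a mean log2 ratio of 1 or more in size at 92 h, where 3.02% of all genes did. EIF4B, which stimulates the eIF4A helicase, had ratios of 1.63, 1.88 and 1.03, a mean of 1.51 ± 0.43 (SD, n = 3), or 2.85-fold, with an adjusted p of 0.102 by limma. EEF2, the translocase of elongation, had 1.01, 1.20 and 1.36, a mean of 1.19 ± 0.17 and an adjusted p of 0.282 by limma. The helicase gene EIF4A1 had 0.84, 1.30 and 1.40, a mean of 1.18 ± 0.30 and an adjusted p of 0.324 by limma. At 92 h every replicate of these genes lay well above 0. The test pools the spread of the 3 coasting times, and their ratios at 44 h were far apart: EIF4A1 had -0.61, 2.28 and -0.37, EEF2 had -0.12, 1.73 and -1.12, and EIF4B had 0.18, 2.11 and -0.10. In each case replicate 2 at 44 h stood far above the other two. With that replicate left out, EIF4B passed at 92 h (adjusted p = 0.02), as did EIF3K (0.0275) and EEF1A1 (0.0428), and without replicate 3 at 44 h EEF1A1 (0.0412), EIF3H (0.0309) and EIF4A3 (0.0318) passed. The ratios at 92 h are the same in these fits, and what differs is the estimate of the spread. So these passes add nothing on 92 h itself, and the number over all genes at 92 h also moved between settings.

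**Figure D2:**
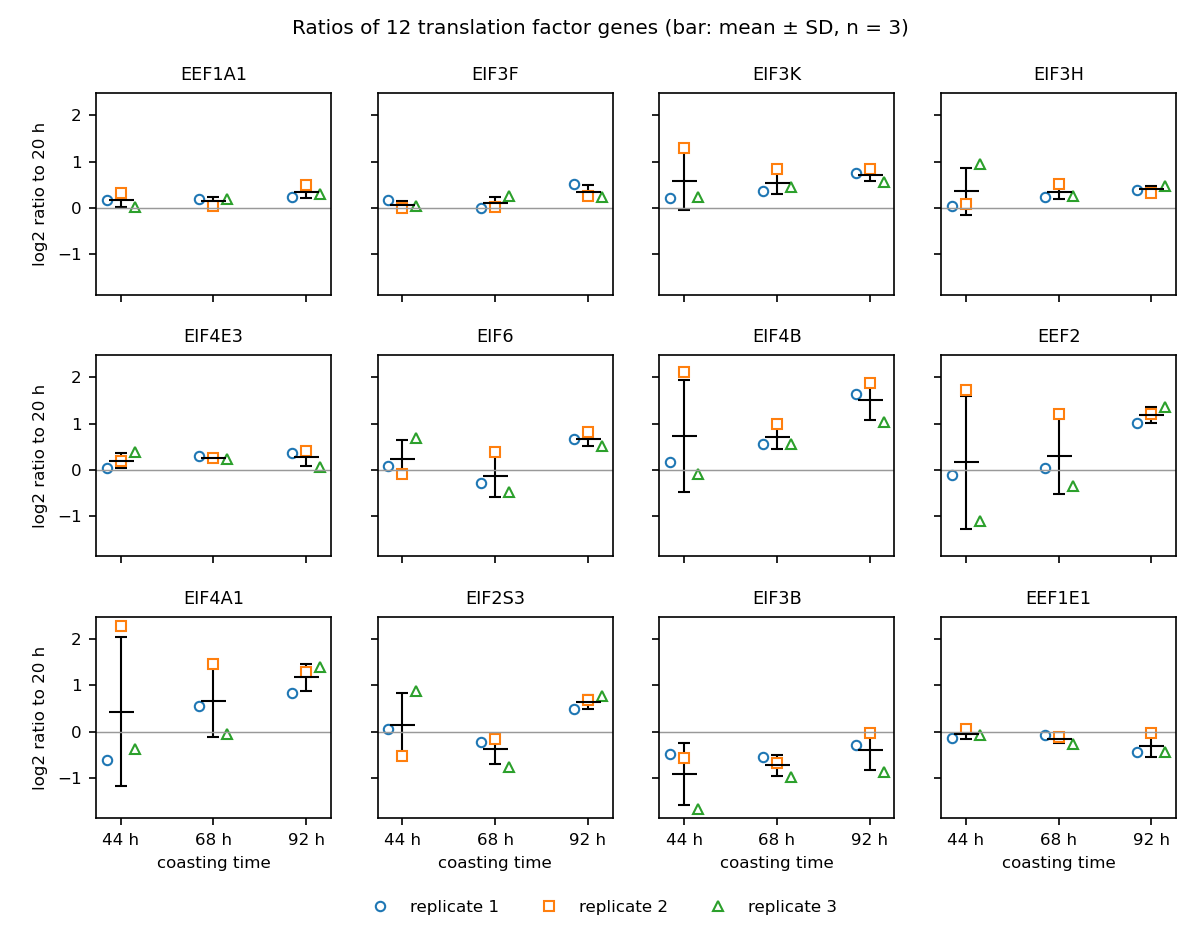
Log2 ratio over 20 h (y axis) at 44, 68 and 92 h (x axis) for 12 factor genes, with 1 symbol per replicate and a bar for the mean ± SD (n = 3). EIF4B, EEF2 and EIF4A1 lie together at 92 h between 0.84 and 1.88 and spread widely at 44 h, while EIF3K lies above 0 and EIF3B below 0 in each replicate of each time.

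Among the factors of scanning, start codon choice and subunit joining, 6 of 7 genes were tested. After loess 5 of 6 had a ratio above 0 at 92 h, with a median of 0.23. Median centring left 3 of 6 above 0, with a median of 0.10, and put EIF1 (-0.03) and EIF1AD (-0.05) below 0. EIF6, which keeps free large subunits from joining, had 0.68, 0.81 and 0.51, a mean of 0.67 ± 0.15 (SD, n = 3) and an adjusted p of 0.127 by limma. Its ratios at 68 h, of -0.28, 0.38 and -0.49, and at 44 h, of 0.07, -0.08 and 0.69, took both signs. EIF5B had 0.31, 0.54 and 0.72 at 92 h, with a mean of 0.52 ± 0.21 and an adjusted p of 0.296 by limma. EIF5, which activates the GTPase of eIF2, was the one below 0 after loess, at -0.45, -0.17 and -0.22 (adjusted p = 0.449 by limma). EIF1, which keeps the scanning complex open until a start codon is met, had 0.06, -0.02 and 0.32 at 92 h. Its paralogue EIF1B had 0.05, 0.33 and 0.61, and EIF1AD, named for its EIF1A-like domain, had -0.07, 0.39 and -0.25. EIF1B was thus above 0 in all 3 replicates, with a mean of 0.33, and the means of EIF1 and EIF1AD, 0.12 and 0.02, were smaller than their spread.

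Of the 9 genes of eIF2 and eIF2B, with the alternative initiator tRNA carrier EIF2A, 3 had a mean above 0 at 92 h, and the median was -0.08. Median centring left 2 of 9 above 0, with a median of -0.15. How this group differs from the others was not tested. EIF2S3, the gamma subunit that binds GTP and the initiator tRNA, had 0.49, 0.68 and 0.77 (mean 0.64, adjusted p = 0.217 by limma). The other subunits of the same trimer, EIF2S1 and EIF2S2, had -0.19, 0.00 and -0.06 (mean -0.08) and -0.01, -0.13 and -0.24 (mean -0.12). So the replicates of 1 subunit lay clearly above 0 and those of its partners lay near it. eIF2B recharges eIF2 with GTP, and its 5 genes EIF2B1 to EIF2B5 ran from a mean of -0.37 in EIF2B4 to 0.05 in EIF2B3. EIF2B4, the delta subunit, had -0.16, -0.47 and -0.47 at 92 h and EIF2B1, the alpha subunit, -0.04, -0.08 and -0.29. EIF2B2 had 0.04, 0.18 and -0.39 and EIF2B3 -0.11, 0.19 and 0.06. The first pair lay below 0 in every replicate and the second pair took both signs. EIF2B5, the catalytic epsilon subunit, had -0.36, 0.06 and -0.65 at 92 h, -0.42, -0.37 and -0.45 at 68 h and -0.29, -0.21 and -1.07 at 44 h. Replicates at 68 and 44 h were all below 0 and those at 92 h took both signs, with adjusted p-values of 0.438, 0.474 and 0.412 at 92, 68 and 44 h by limma.

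Of the 12 eIF3 subunit genes, 10 had a mean above 0 at 92 h, with a median of 0.27, and 0 passed. Median centring left 8 of 12 above 0, with a median of 0.13. EIF3K, a small subunit at the edge of the complex, had 0.76, 0.84 and 0.56 at 92 h, 0.36, 0.83 and 0.45 at 68 h and 0.21, 1.30 and 0.23 at 44 h. Each replicate of each time was above the 20 h RNA on its array, with adjusted p-values of 0.13, 0.409 and 0.431 by limma. EIF3H, another MPN subunit, had 0.40, 0.33 and 0.47 at 92 h, a mean of 0.40 ± 0.07 (SD, n = 3) and an adjusted p of 0.266 by limma. EIF3B, a core scaffold subunit that binds EIF3G and EIF3I in yeast, lay on the other side of 0. It had -0.28, -0.04 and -0.87 at 92 h, -0.54, -0.67 and -0.97 at 68 h and -0.49, -0.57 and -1.68 at 44 h. All of these were below 0, and the adjusted p was 0.484, 0.356 and 0.302 by limma. The other subunit below 0 at 92 h after loess was EIF3G, at -0.25, -0.10 and -0.77. EIF3D, which can bind the cap of some mRNAs in human cells, had 0.84, 0.68 and 0.11 at 92 h. EIF3E, EIF3F and EIF3M, which belong with EIF3K and EIF3L to the PCI and MPN core of the complex, were all above 0 in each replicate. EIF3E had 0.29, 0.02 and 0.10 and EIF3M 0.40, 0.28 and 0.05. The dye orientations of these last 2 differed in sign: coasted RNA in Cy5 gave 0.32 for EIF3E and 0.63 for EIF3M, and in Cy3 -0.06 and -0.15. With median centring the mean of EIF3E was -0.02. EIF3L had 0.44, 0.64 and -0.05 and EIF3CL, the platform's EIF3C, 0.40, 0.65 and -0.15. In both of these replicate 3 stood apart from the others. EIF3I and EIF3J had means of 0.03 and 0.21 with replicates of both signs, so subunits of 1 complex covered a range from -0.40 to 0.72.

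The eIF4 group had 12 of 14 genes tested, 8 of them above 0 at 92 h, and a median of 0.11. Median centring left 6 of 12 above 0, with a median of 0.01. Beside EIF4B and EIF4A1, the cap-binding paralogue EIF4E3 had 0.36, 0.41 and 0.06, a mean of 0.28 ± 0.19 (SD, n = 3) and an adjusted p of 0.131 by limma. The exon junction helicase EIF4A3 had 0.27, 0.34 and 0.21 (adjusted p = 0.29 by limma). EIF4E2, a cap-binding repressor, had -0.23, -0.59 and -0.50, the lowest mean of the set at -0.44 (adjusted p = 0.299 by limma). Its dye orientations differed, with -0.89 for coasted RNA in Cy5 and 0.01 in Cy3. The difference divided by 2 was -0.45 at 92 h, -0.39 at 68 h and -0.38 at 44 h. Its dimmer probes gave 0.01 and -0.09 at 92 h. EIF4E, the cap-binding factor of the canonical complex, had 0.05, -1.35 and 0.04 at 92 h, -1.54, 0.39 and -0.04 at 68 h and 0.46, -1.0 and 0.24 at 44 h. In each time 1 replicate stood at -1.0 or lower while the other two lay near or above 0. A second EIF4E probe gave -1.13, -1.20 and -0.65 in those same replicates at 92, 68 and 44 h, and the last, dimmer probe gave -0.14, -0.17 and -0.17. EIF4A2, a close paralogue of EIF4A1, had -0.15, -0.46 and 1.08 at 92 h, and its mean of -1.06 at 68 h was the lowest there, from -1.21, -0.28 and -1.69. The scaffold gene EIF4G2, which lacks the eIF4E site, had 0.06, 0.23 and -0.11 at 92 h, and the helicase cofactor EIF4H had -0.19, -0.15 and 0.18. EIF4ENIF1, which carries eIF4E into the nucleus, had -0.17, -0.09 and 0.87. These took both signs, with replicate 3 of EIF4ENIF1 far above the other two. Of the inhibitors that sequester eIF4E, EIF4EBP2 had -0.02, 0.08 and -0.04 at 92 h. EIF4EBP1 exceeded background on 4 of 18 arrays for 20 h, 0 of 6 for 44 h, 3 of 6 for 68 h and 2 of 6 for 92 h. It was thus kept through 68 h alone.

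The elongation group had 10 of 10 genes tested, 8 of them above 0 at 92 h, and a median of 0.20. Median centring also left 8 of 10 above 0, with a median of 0.09. EEF1B2, the exchange factor that recharges eEF1A, had 0.33, 0.60 and 0.80 (mean 0.58, adjusted p = 0.383 by limma). Its partner EEF1D had 0.43, 0.30 and -0.02, and EEF1G, the scaffold of the exchange complex, 0.78, 0.75 and -0.50. EEF1B2 was above 0 in all 3 replicates, while replicate 3 of EEF1D and EEF1G was not. EEF1E1, a scaffold protein of the aminoacyl-tRNA synthetase complex, was the only factor gene below 0 at an unadjusted p under 0.05 at 92 h. It had -0.44, -0.02 and -0.44, a mean of -0.30 ± 0.24 (SD, n = 3), or 0.81-fold, and an adjusted p of 0.133 by limma. EEF2K, the kinase that inactivates eEF2, had 0.04, 0.13 and 0.11 at 92 h, -0.15, -0.02 and -0.09 at 68 h and 0.00, 0.30 and 0.50 at 44 h. EIF5A, which helps ribosomes through difficult peptide bonds, had 0.09, 0.05 and 0.33 at 92 h, a mean of 0.16. The tissue-restricted paralogues EIF5A2 and EEF1A2 were dim at 92 h, with 2 of 6 arrays above background, with means of -0.03 and 0.03. AGO3 was equally dim, at 0.00, and is counted among the genes above 0 in all 3 replicates at 92 h.

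**Figure D3:**
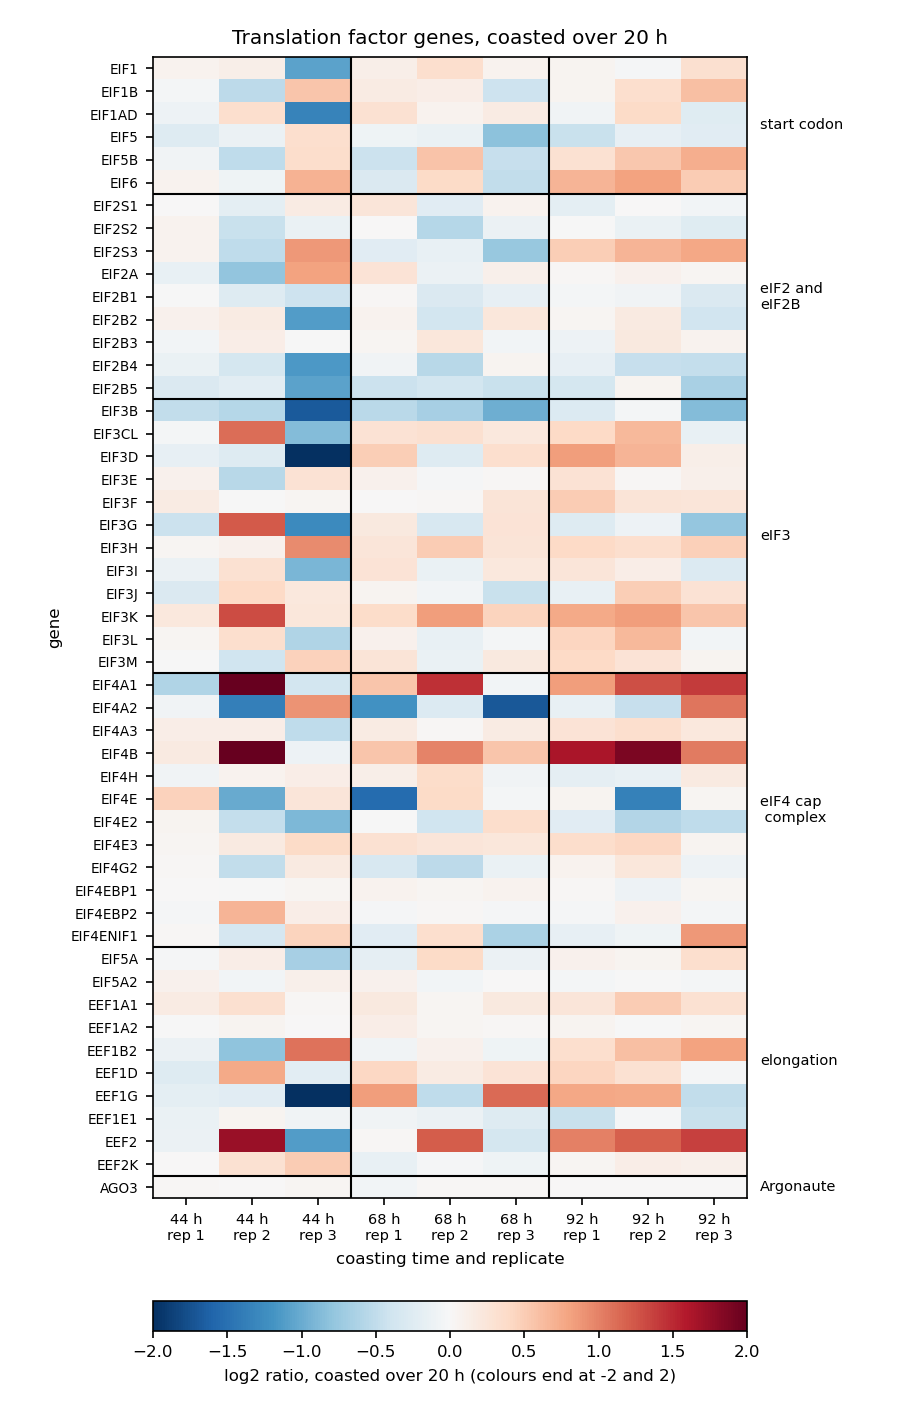
Log2 ratio over 20 h after loess (colour, red above 0 and blue below, ending at -2 and 2) of the 50 factor genes (rows, grouped by role) in the 9 replicates (columns). The columns at 92 h are mostly red in the eIF3 and elongation rows, and replicates 2 and 3 at 44 h hold the strongest colours of both signs.

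At 68 h the set was centred near the 20 h level. The median was 0.03, with 27 of 50 genes above 0 (49.2% of all genes), and 0 of 50 passed, with 0% of all genes. At an unadjusted p under 0.05 there were 4 of 50 (8%), against 11% of all genes: EIF4E3 and EIF3K above 0, and EIF3B and EIF4G2 below. By sign, 13 of 50 (26%) were above 0 in all 3 replicates, against 21.8% of all genes, and 8 (16%) were below, against 21.1%. The 13 include EIF4EBP1, at 0.07, 0.04 and 0.08, which was kept through 68 h alone, so its place there is no support. EIF4E3 had 0.30, 0.25 and 0.23, with an adjusted p of 0.307 by limma. EIF4G2 had -0.33, -0.52 and -0.13, with an adjusted p of 0.439 by limma. Its direction turned with the dye: the mean at 68 h was 0.38 with the coasted RNA in Cy5 and -1.03 with it in Cy3.

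At 44 h the replicates of the factor genes disagreed most. The median SD over replicates was 0.461 for the factor genes at 44 h, against 0.216 at 68 h and 0.18 at 92 h, and over all genes it was 0.216, 0.138 and 0.136. Replicates 2 and 3 had opposite signs in 32 of 50 factor genes (64%), against 53.2% of all genes, and lay more than 1 log2 unit apart in 19 (38%), against 18.4%. The factor genes are brighter than all genes. Only 4 of 50 (8%) lay within 0.2 of 0 in every value, against 28.8% of all genes. The part of brightness in these SDs and shares was not tested. The lowest values were in replicate 3, with -3.73 for EEF1G, -2.30 for EIF3D and -1.68 for EIF3B. For EEF1G the other 2 replicates were at -0.20 and -0.23, so its mean of -1.38 at 44 h, the lowest of the set, rests on 1 replicate. EIF1 had 0.07, 0.11 and -1.07, and its second probe had -2.79 in the same replicate. The median at 44 h was -0.01, with 24 of 50 genes above 0 (48.3% of all genes), and 0 of 50 passed, with 0% of all genes. With median centring 13 of 50 were above 0 and the median was -0.17, while 39.7% of all genes were above 0.

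At an unadjusted p under 0.05 there were 7 of 50 (14%) at 44 h, against 9.57% of all genes. Those below 0 were EIF3B, EIF2B5, EIF2B4 and EIF2B1, and those above were EEF2K, EIF3K and EIF4E3. So 3 of the 5 eIF2B genes were among them, at means of -0.22 for EIF2B1, -0.55 for EIF2B4 and -0.52 for EIF2B5 (adjusted p = 0.507, 0.435 and 0.412 by limma). Replicate 3 was the lowest of each, at -0.41, -1.16 and -1.07, so these means lean on it. EIF2B4 was above background on 4 of 6 arrays for 44 h, and the dimmer EIF2B5 probes had means of 0.05 and -0.30. By sign, 6 of 50 (12%) were above 0 in all 3 replicates, against 12.7% of all genes, and 6 (12%) below, against 12.9%.

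The longer times were also set against each other through the 20 h RNA. Of these comparisons, only that of 68 with 44 h was between follicles of the same size range. Whether the 20 h RNA was the same pool for each time is not stated, so these differences may also hold differences between 20 h pools. The 92 h arrays lay on slides that held no array of 44 or 68 h. A difference of 92 h from either time thus cannot be told apart from one between slides. Of 50 factor genes, 0 passed between 92 and 44 h, between 92 and 68 h or between 68 and 44 h, and so did 0% of all genes in each. At an unadjusted p under 0.05 there were 2 (4%) between 92 and 44 h, EIF3D and EIF3F, against 7.76% of all genes. There were 2 (4%) between 92 and 68 h, EIF2S3 and EIF6, against 5.94%, and 1 (2%) between 68 and 44 h, EEF2K, against 5.4%. The ratio of EIF2S3 was higher at 92 h than at 68 h by 1.02 (95% interval 0.22 to 1.82, adjusted p = 0.806 by limma). That of EIF6 was higher by 0.80 (0.15 to 1.44, adjusted p = 0.812).

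The 2 dye orientations of a replicate were averaged, and for several factor genes they differed by more than the ratio itself. At 92 h, 18 of 50 factor genes (36%) had means of opposite sign in the 2 orientations, against 48.9% of all genes. EIF3G had -1.30 with the coasted RNA in Cy5 and 0.55 with it in Cy3. The dye part of that, the difference divided by 2, was -0.93 at 92 h, -0.88 at 68 h and -0.88 at 44 h. EIF2S2 likewise had a dye part of -0.50, -0.49 and -0.50, and EIF3D one of -0.48, -0.48 and -0.47. So the dye part of these genes was of like size at each time, and the average over both orientations removes it. Among the members of smallest p at 92 h it was 0.07 for EEF1A1, 0.02 for EIF3F and -0.01 for EIF3K, and 0.26 for EIF4B and -0.17 for EIF6, which are smaller than their ratios. EEF2 had -0.20 and EIF4A1 0.16. At 92 h and at 44 h each orientation lay on a slide of its own, so dye and slide cannot be told apart at these times. Both orientations of 2 replicates at 68 h shared a slide.

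**Figure D4:**
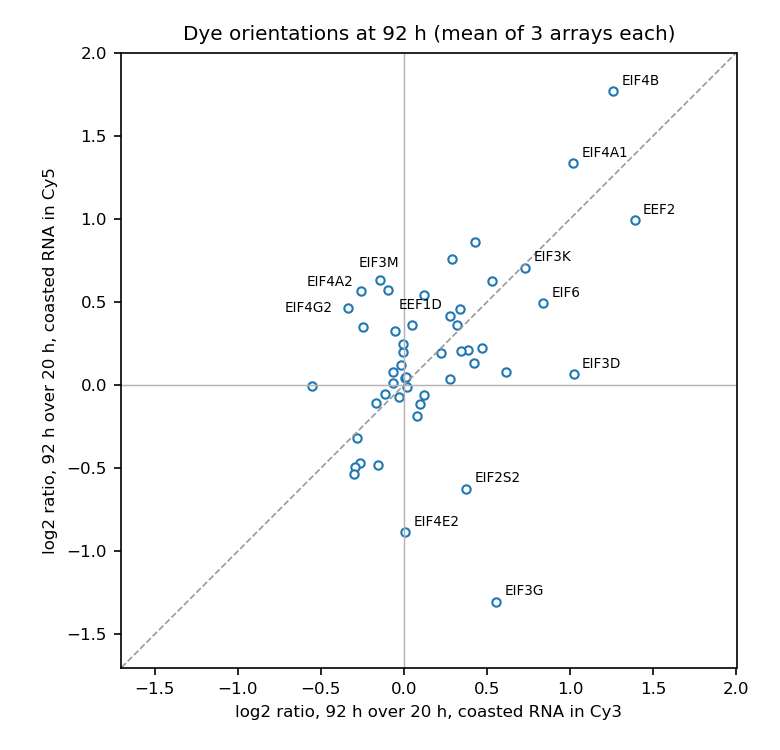
Mean log2 ratio of 92 h over 20 h for the 50 factor genes with the coasted RNA in Cy3 (x axis) and in Cy5 (y axis), 3 arrays each, with the line of equality dashed. EIF4B, EEF2, EIF4A1, EIF3K and EIF6 are above 0 in both, and EIF3G is at 0.55 in one and -1.30 in the other.

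Several probes above background were available for 16 of the 50 genes, and the brightest was used. At 92 h the 4 probes of EIF3F had means of 0.18, 0.34, 0.49 and 0.60, the 2 of EEF1A1 had 0.35 and 0.49, and the 2 of EEF1E1 had -0.30 and -0.37. For EEF2 the brightest gave 1.19 and a second, dimmer one 0.13. For EIF6 the second probe gave 0.22 against 0.67, and at 44 h its replicates of 0.03, 0.84 and -1.30 differed from the 0.07, -0.08 and 0.69 of the first. EIF2B2, EIF4E2, EIF5 and EIF5A had probes on both sides of 0, at most 0.45 apart. EIF4B, EIF4A1 and EIF3K rest on 1 probe each. EIF4A1 and EIF4A2, EIF1 and EIF1B, and the EEF1A pair are closely related in sequence, and the probes' specificity between such copies is not known here.

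**Figure D5:**
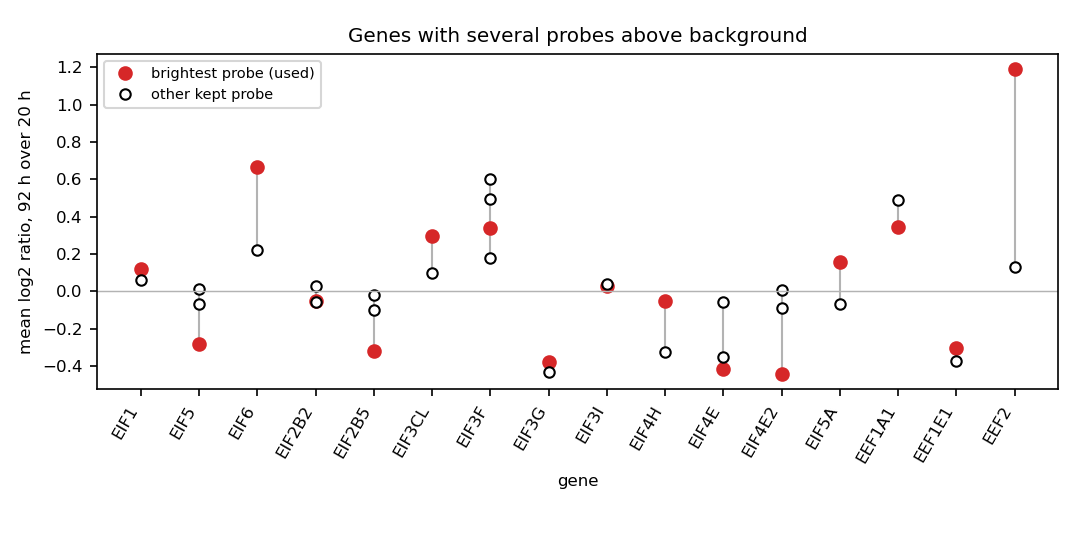
Mean log2 ratio of 92 h over 20 h (y axis) of each probe above background for the 16 factor genes with several (x axis), filled for the brightest probe, which was used, and open for the others. The probes of EEF2 lie 1.06 apart and those of the other genes at most 0.45.

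Of 46 other genes of the translation pathway (eIF2 kinases and phosphatase subunits, mTOR signalling, poly(A) binding, release, hypusination, diphthamide and mitochondrial factors), 40 were tested. At 92 h 2 were higher and 1 lower by the test, where 2.32% of all genes passed, and 17 of 40 were above 0, against 49.6% of all genes, with a median of -0.02. MTIF3, a mitochondrial initiation factor, had 0.60, 0.44 and 0.46 (adjusted p = 0.0312 by limma). PDCD4, an inhibitor of the eIF4A helicase, had 0.54, 0.82 and 0.28 (adjusted p = 0.0433). GFM1, a mitochondrial elongation factor, had -0.73, -0.51 and -1.0 (adjusted p = 0.0465). PABPC4, a poly(A)-binding protein, was next at 0.73, 0.79 and 0.52 (adjusted p = 0.0523). At 68 and 44 h 0 of the 40 passed, with medians of -0.12 and -0.07.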

How the data were processed

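Per the labels' protocols, RNA was amplified in 2 rounds and labelled with Cy3 or Cy5. The deposited scanner files hold spot intensity and local background per channel, not normalized, per the file headers. The authors' deposited table holds log2 ratios that follow Cy5 over Cy3 of the scanner values (Pearson r of 0.684 to 0.863). How that table was background corrected and normalized is not known here. The direction of each array was taken from the dyes in the labels.

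Background was corrected with normexp (offset 50) and each array was normalized by loess, giving control spots no weight, in limma 3.58.1 and R 4.3.3. Loess centres the ratios at each brightness, so a shift common to most genes would not show. All ratios were expressed as coasted over 20 h; averaging each dye pair gave 9 values. A probe was kept if its signal over local background was more than 2 SD above the mean negative control on a share of at least 0.5 of the arrays of 1 coasting time. The brightest kept probe stood for a gene. The moderated test of lmFit and eBayes was two-sided, with 1 coefficient per time, 6 residual and 1.13 prior degrees of freedom, and Benjamini-Hochberg adjustment over 11044 genes at 0.05. It treats values that share 20 h RNA as independent. The same script was tested on simulated data. The number of arrays limits the precision. Symbols come from the platform annotation and were updated through RefSeq.

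Members with a value in every replicate were to be those of smallest p in each comparison and the core factors. Such values are also given for members outside that choice, among them EIF1B, EIF1AD, EIF4A3, EIF4ENIF1 and several eIF3 subunits. Other pathway genes are named where they passed or had one of the 3 smallest p at 92 h, with PABPC4 added after its values were seen. The members, the lists and this rule were chosen with earlier results of these data known. Same-numbered replicates of 44 and 92 h deviated together across genes (r = 0.356, 0.259 and 0.235), while those of 68 h did not (-0.346 to -0.031 against either). The labels give no shared source for a number, so the main fit has no block.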

Additional observations from a re-analysis of the deposited data

Results flagged for a closer look

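For 3 genes every replicate at one coasting time was above the 20 h RNA and every replicate at another was below it. The difference itself was tested with limma and passed in none of them. EIF3D had a log2 ratio higher at 92 h than at 44 h by 1.4514 (adjusted p = 0.608), with 44 h values of -0.17, -0.25 and -2.30, the last of them far below the other two. EIF2S3 was higher at 92 h than at 68 h by 1.0208 (adjusted p = 0.806). EEF2K was higher at 92 h than at 68 h by 0.1806 (adjusted p = 0.943), and its difference of 68 h from 44 h was -0.354 (adjusted p = 0.687). The causes were not tested.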

How the results depend on the processing

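Each result was recomputed under 25 other settings, where they apply. Between 92 and 44 h, 92 and 68 h, 68 and 44 h, and 44 and 20 h, 0 factor genes passed under each setting run. At 92 h the main count of 0 became 1 without background correction (EIF3F), 1 with the coasted RNA in Cy5 only (EEF1A1), 3 in Cy3 only (EIF3F, EIF4E3, EIF6), 1 from the 3 values of the time alone (EEF2, adjusted p = 0.05 rounded) and 6 with slide as a random block (EEF1A1, EIF3F, EIF4B, EIF6, EIF3K, EEF1E1). The slide blocks were fitted on single arrays, 18 in the random block and 12 in the fixed one, which count both dye orientations of a replicate as separate values, so their p-values are too small. At 68 h it became 3 in Cy3 only (EIF4E3, EIF4EBP1, EIF4G2). EIF4EBP1 was kept through 68 h alone, so its pass is no support, and its mean there was 0.17 in Cy3 and -0.05 in Cy5. Leaving out 1 replicate gave 0 to 3 at 92 h. With a replicate block 0 passed at each time, and 0 in a block over 44 and 92 h alone, which was added after seeing the data. The number over all genes at 92 h, 256 in the main fit, ran from 0 to 1489, with 0 under a trended and robust prior and without replicate 1 at 92 h, and 117 with the block. It was 459 without background correction and 68 with median centring. So a change in the count of factor genes may be part of a change over all genes.

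At an unadjusted p under 0.05, counted after seeing the data, the 9 genes at 92 h became 5 with median centring, 18 in Cy5 only, 14 in Cy3 only, 16 from the 3 values of the time and 14 with the slide block, and 5 to 18 with 1 replicate left out, the 18 without replicate 3 at 44 h. The 4 at 68 h became 10, 12, 10 and 8 in Cy5 only, Cy3 only, the own values and the random slide block, 8 with slide fixed, and 1 to 9 with 1 replicate left out. The 7 at 44 h became 12 in Cy5 only, 0 from the own values, 12 and 3 with slide as a random or fixed block, and 5 to 11 with 1 left out. Shares of all genes under these settings are not given. So a move of the factor genes cannot be told from one of all genes.

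The median log2 ratio at 92 h stayed above 0 under each setting run. It was 0.0307 with median centring, 0.0604 without a filter on dim probes, 0.0509 over all probes and 0.0632 in Cy3 only, and 0.0996 to 0.129 with 1 replicate left out. At 68 h it was 0.0646 in Cy5 only and 0.0126 to 0.0513 with 1 left out. At 44 h it was -0.166 with median centring, -0.0295 with the stricter filter, -0.0382 with the mean of probes, -0.0439 over all probes, 0.0173 from the authors' deposited log2 ratios, 0.0217 in Cy5 only, -0.0492 in Cy3 only, 0.0433 with slide fixed and -0.00706 to 0.0249 with 1 left out. The cause of these differences was not tested, beyond the fewer samples of some settings.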

Other observations

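Genes that carry a factor's name only under their current symbols lay outside the set. At 92 h EIF2D, which the platform calls LGTN, had a log2 ratio of 0.11, and the methyltransferase genes EEF1AKMT1 and EEF1AKMT3 had 0.34 each. The unadjusted p was 0.23, 0.278 and 0.187 by limma.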
